A study of Mus musculus with 36 samples.

Results

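The 9 core pluripotency transcription factors described here are *Pou5f1*, *Sox2*, *Nanog*, *Esrrb*, *Sall4*, *Tfcp2l1*, *Zfp42*, *Klf4* and *Klf2*. They were chosen by gene symbol, without a threshold on their values, from 56893 symbols in the tables of primordial germ cells (PGCs), and all 9 were also found among the 55492 symbols of the gonad tables. The 36 bulk RNA-seq libraries formed 12 groups with 3 in each, in which mouse fetuses of control dams were set against fetuses exposed to intrauterine hyperglycemia (IUHG), with the genotype given as WT in the labels of both. The IUHG dams received 120 mg/kg streptozotocin (STZ), a drug toxic to pancreatic β-cells, on day 3.5 of pregnancy, and were included when their blood glucose on day 6.5 was above 14 mM. Whole gonads of ICR female fetuses at E13.5 gave 6 libraries, each a pool of 4 gonad pairs. Sorted PGCs gave the other 30 libraries, each pooled from 20 to 30 fetuses, at E12.5 (no sex in the labels) and separately for females and males at E13.5 and at E16.5. All PGC fetuses, control and IUHG, carried the Oct4-EGFP transgene from their sires. PGCs were released with trypsin and taken as EGFP-positive cells, so each PGC library was selected through a reporter of *Pou5f1*, the gene that encodes OCT4. Female groups are written E13.5F and E16.5F and male groups E13.5M and E16.5M, and the libraries of a group are named by their replicate numbers.

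In the pluripotency network, OCT4 and SOX2 bind composite sites together and, with NANOG, sustain their own expression and that of the other members. ESRRB, TFCP2L1, KLF2 and KLF4 hold the naive state, SALL4 is a zinc finger partner of OCT4, and *Zfp42* (Rex1) is a widely used marker of that state. PGCs keep a large part of this network active while they colonise the gonad, and then switch it off. Female PGCs leave it as they enter meiosis, whereas male PGCs leave it as they stop dividing and become prospermatogonia.

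Of the 9 genes, 8 had entries among the RefSeq promoters of GRCm38.p6, with 11 promoters between them, each spanning 250 bases before to 50 after a start site. *Sall4* had none. Motifs were searched on both strands as the POU octamer ATGCAAAT, the POU heptamer ATGCAAA (which lies within the octamer), the SOX core CATTGT, the ESRRB half-site TCAAGGTCA and the KLF box GGGNGTGG. The 250 upstream bases are printed for *Nanog* (chr6:122707239-122707488, plus strand), *Zfp42* (chr8:43307010-43307259, minus strand) and *Pou5f1* (chr17:35505782-35506031, plus strand), because they hold sites of the members' own families and their genes took 3 different courses. Capitals mark a heptamer followed by a SOX core in *Nanog*, an octamer in *Zfp42* and a KLF box in *Pou5f1*, each as read on the printed strand. The printed *Nanog* and *Zfp42* stretches also hold KLF boxes, at -10 to -3 and at -75 to -68 from the start site, left in lower case.
Nanog: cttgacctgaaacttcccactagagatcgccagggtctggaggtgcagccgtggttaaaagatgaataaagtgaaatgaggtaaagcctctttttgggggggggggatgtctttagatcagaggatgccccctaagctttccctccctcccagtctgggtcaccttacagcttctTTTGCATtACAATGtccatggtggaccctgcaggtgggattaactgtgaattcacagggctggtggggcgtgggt
Zfp42: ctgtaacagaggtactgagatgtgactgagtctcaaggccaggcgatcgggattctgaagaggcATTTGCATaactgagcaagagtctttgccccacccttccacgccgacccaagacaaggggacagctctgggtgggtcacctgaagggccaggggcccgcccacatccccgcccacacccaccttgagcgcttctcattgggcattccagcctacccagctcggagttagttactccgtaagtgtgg
Pou5f1: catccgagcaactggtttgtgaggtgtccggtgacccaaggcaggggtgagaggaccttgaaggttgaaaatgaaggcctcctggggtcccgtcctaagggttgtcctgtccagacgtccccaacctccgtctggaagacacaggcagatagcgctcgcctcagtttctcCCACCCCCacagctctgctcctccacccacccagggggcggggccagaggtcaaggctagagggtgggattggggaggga
The octamer was in 1 of the 11 member promoters and in 1.74% of all 32851 promoters. The heptamer was in 4 of 11 against 4.63%, the SOX core in 4 of 11 against 12.6%, and the KLF box in 5 of 11 against 17.6%. The ESRRB half-site was in 0 of 11 against 0.423%. Overlapping promoters of one gene count separately here, and a match describes letters only.

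Levels are given in TPM, that is, scaled for transcript length and library total, so members can be compared with each other. Differences are log2 differences of (TPM + 1) with the standard error (SE) from limma, a scale that understates the change of low genes. A call needed an absolute log2 difference of at least 1 together with an adjusted p below 0.05 (gonads) or below 0.01 (PGCs). Labels call the samples of a group biological replicates without naming litters, so p-values measure the spread between these pools. Groups of 3 libraries often do not overlap. IUHG lay wholly above control for 14.5% of genes in gonads and 19.8% in E13.5F PGCs. Such shares are not given for the other comparisons, where a lack of overlap is description only. Dividing coverage by FPKM put the depth at 3.89 to 4.95 aligned gigabases for gonad libraries and 3.25 to 8.32 for PGC libraries, and the counting error of a single gene is unknown. All 6 germ cell markers were above 1 TPM in at least 1 library of every PGC group. Gonad control library 1 went against its female label, with a Y-linked sum of 51.3 TPM against 0 in the other 5 gonad libraries and a Sertoli marker sum of 289 TPM against 27.2 to 37.1 TPM. E12.5 libraries held Y-linked sums of 130 to 212 TPM, so they were not purely female. In bulk RNA, fewer cells of a type and less RNA per cell cannot be told apart.

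**Figure D1:**
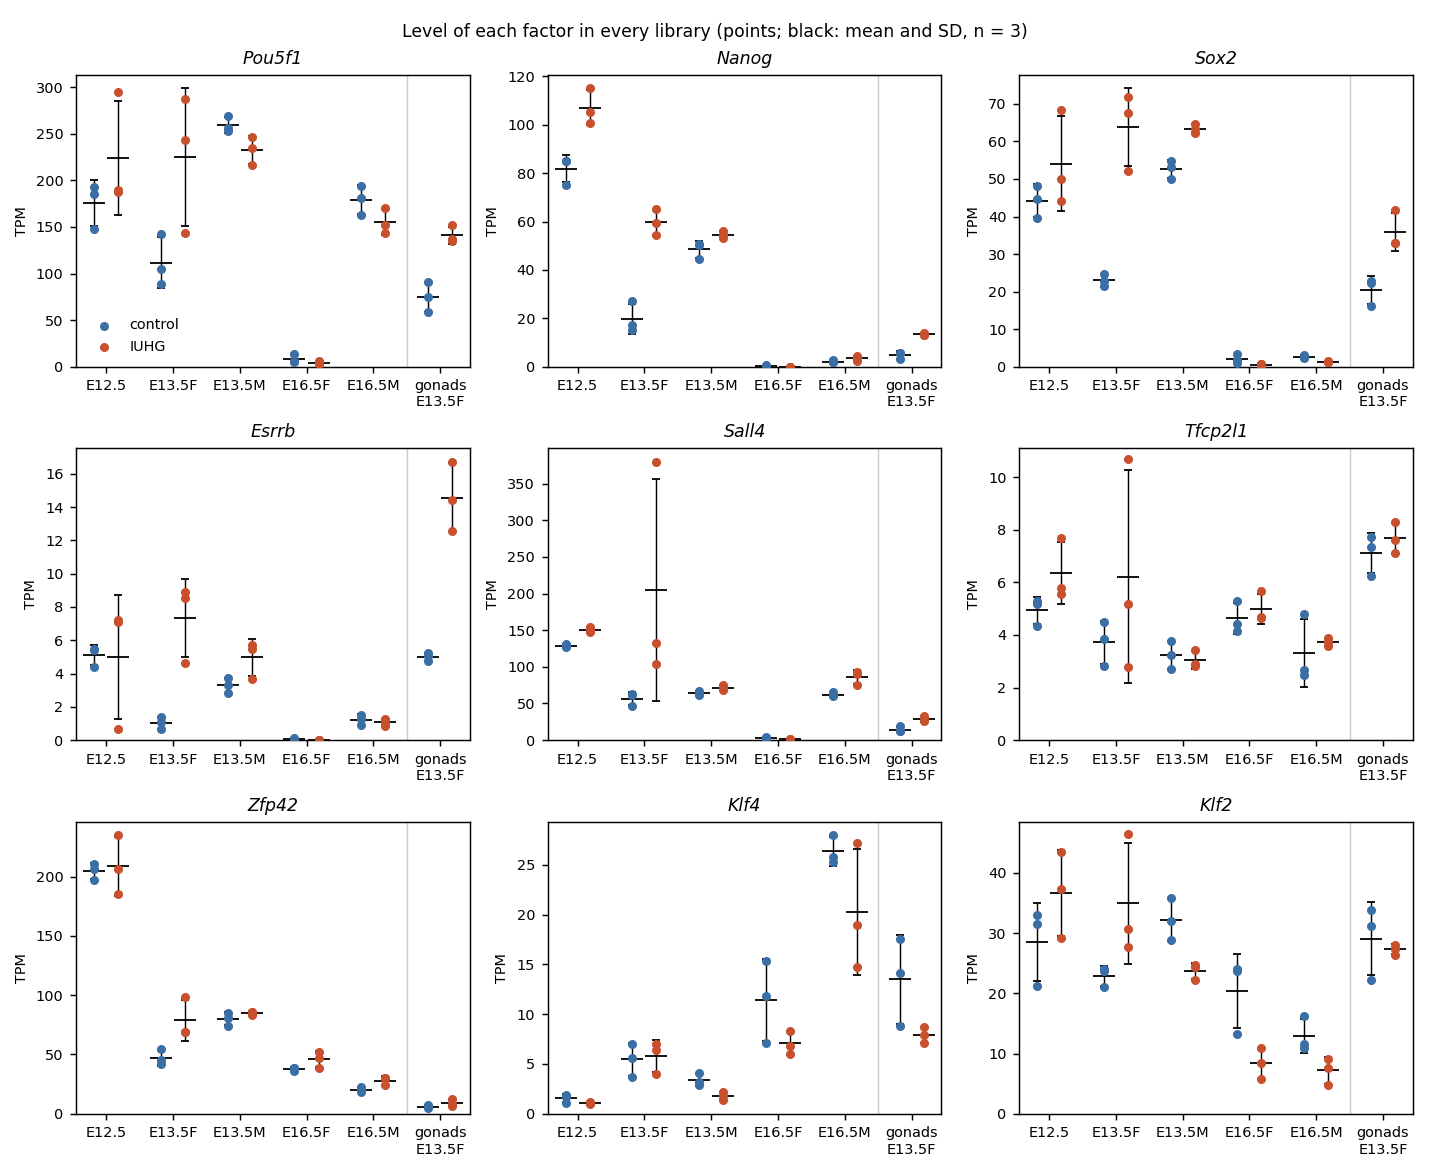
TPM of each factor (vertical axes, linear, from 0) in every library, by stage and sex (horizontal axes), with control in blue, IUHG in red, and the mean and SD of 3 libraries in black. In E13.5F PGCs the IUHG points of *Nanog*, *Sox2*, *Esrrb* and *Sall4* lie above all control points, and in E16.5F PGCs those 4 genes are at most 4.51 TPM.

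Among control PGCs, the factors took different courses between E12.5 and E16.5. *Nanog*, *Zfp42*, *Esrrb* and *Sall4* were already called lower in E13.5F than at E12.5, and *Sox2* and *Pou5f1* were lower short of the fold threshold. *Pou5f1* and *Sall4* stayed high in males until E16.5, and *Klf4* rose in males while *Nanog* and *Sox2* fell.

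*Pou5f1* in control PGCs measured 193, 148 and 186 TPM at E12.5, 88.5, 104 and 142 TPM in E13.5F, and 269, 253 and 256 TPM in E13.5M. At E16.5 it measured 13.6, 5.64 and 5.34 TPM in females against 194, 181 and 163 TPM in males. The E16.5F libraries lay far below every other control group, although they had been sorted for a *Pou5f1* reporter. The level fell by 3.70 on the log2 scale from E13.5F to E16.5F (SE 0.31, limma adjusted p = 1.05e-05) and differed by -0.53 (SE 0.07, limma adjusted p = 0.000136) from E13.5M to E16.5M, short of the fold threshold.

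*Nanog*, a homeobox factor, measured 85.0, 75.3 and 85.0 TPM at E12.5, 17.1, 15.1 and 26.9 TPM in E13.5F, and 44.5, 50.4 and 50.6 TPM in E13.5M. In E16.5M it measured 1.79, 1.81 and 2.65 TPM, and in E16.5F 0.494 TPM in library 1 while it was listed at 0 in libraries 2 and 3. The groups were ordered without overlap, E12.5 above E13.5M, then E13.5F, E16.5M and E16.5F. *Sox2*, the HMG box partner of OCT4, measured 44.8, 39.6 and 48.2 TPM at E12.5, 22.9, 21.4 and 24.7 TPM in E13.5F, and 50.01, 54.7 and 53.2 TPM in E13.5M. At E16.5 it measured 1.04, 1.84 and 3.24 TPM in females and 2.19, 2.99 and 2.50 TPM in males, ranges that overlap.

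*Sall4* measured 127, 132 and 128 TPM at E12.5 and 46.1, 62.3 and 62.0 TPM in E13.5F. In males it measured 62.7, 67.1 and 61.2 TPM at E13.5 and 59.6, 61.1 and 65.2 TPM at E16.5, against 3.45, 4.51 and 2.67 TPM in E16.5F. *Sall4* thus had a similar level in E13.5F, E13.5M and E16.5M, whose ranges overlap, and a level below all of them in E16.5F. *Zfp42* measured 210, 207 and 197 TPM at E12.5, then 45.2, 54.2 and 41.5 TPM in E13.5F and 81.1, 84.8 and 74.1 TPM in E13.5M. At E16.5 it measured 38.4, 36.2 and 38.8 TPM in females and 18.4, 20.0 and 22.5 TPM in males, so it was the 1 member with E16.5F above E16.5M at an adjusted p under 0.05 (log2 difference 0.87, SE 0.12, limma adjusted p = 0.000326), below the fold threshold. Reads of its near-identical copy *Zfp42-ps1*, listed at 0.949 to 21.6 TPM in single libraries, may be split with it.

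*Klf4*, a zinc finger factor of the naive state that is also induced in differentiating epithelia, ran the other way. It measured 1.64, 1.89 and 1.10 TPM at E12.5, 3.21, 2.88 and 4.09 TPM in E13.5M, and 28.0, 25.8 and 25.3 TPM in E16.5M. In females it measured 5.61, 7.03 and 3.72 TPM at E13.5 and 7.14, 15.3 and 11.8 TPM at E16.5. E16.5M control libraries stood above all other control libraries of PGCs for *Klf4*. *Klf2* measured 33.1, 21.2 and 31.4 TPM at E12.5, 28.8, 35.9 and 32.1 TPM in E13.5M and 11.5, 11.0 and 16.2 TPM in E16.5M, and 13.2, 23.7 and 24.1 TPM in E16.5F. *Esrrb*, an orphan nuclear receptor, was low, with 5.48, 4.40 and 5.42 TPM at E12.5, 1.39, 0.644 and 1.09 TPM in E13.5F and 0.906, 1.51 and 1.30 TPM in E16.5M. *Tfcp2l1*, a grainyhead-like factor, lay between 2.49 and 5.31 TPM in all control PGC libraries and was called in no control comparison.

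From E12.5 to E13.5F, 4 of 9 members fell (*Zfp42* by 2.11, *Nanog* by 2.04, *Esrrb* by 1.59 and *Sall4* by 1.18 on the log2 scale, limma adjusted p from 4.28e-07 to 0.000241), against 6.9% of all tested genes. In the same comparison 1 member, *Klf4*, rose (log2 difference 1.32, SE 0.26, limma adjusted p = 0.00155), against 18.6% of genes. *Sox2* (-0.91, SE 0.13, limma adjusted p = 0.000188) and *Pou5f1* (-0.66, SE 0.17, limma adjusted p = 0.00672) were also lower, short of the fold threshold. The Y-linked sum was 194 to 212 TPM in E12.5 controls and at most 0.0187 TPM in E13.5F controls, so stage and sex cannot be told apart here. From E12.5 to E13.5M, 2 members fell (*Zfp42* by 1.35 and *Sall4* by 1.01, limma adjusted p = 1.88e-07 and 7.75e-07), against 7.27% of genes. *Sall4* sat at the fold threshold, and lost its call without E12.5 library 2 (-0.99), E13.5M library 1 (-0.996) or E13.5M library 3 (-0.98). *Pou5f1* was 0.57 higher in E13.5M than at E12.5 (SE 0.09, limma adjusted p = 0.000394), below the fold threshold.

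From E13.5F to E16.5F, 4 members fell (*Nanog* by 4.14, *Pou5f1* by 3.70, *Sall4* by 3.68 and *Sox2* by 3.04, limma adjusted p at most 1.94e-05), against 9.79% of genes. *Zfp42* differed by only -0.30 in that interval (SE 0.15, limma adjusted p = 0.108). From E13.5M to E16.5M, 4 members fell (*Nanog* by 4.01, *Sox2* by 3.92, *Zfp42* by 1.93 and *Klf2* by 1.27, limma adjusted p at most 6.89e-05), against 12.7% of genes. *Klf4* rose by 2.65 (SE 0.13, limma adjusted p = 2.61e-07), and 38.3% of all genes rose in the same comparison. Control marker sums in E16.5M against E13.5M were 97.4 to 103 against 35.3 to 42.0 TPM (Sertoli) and 221 to 224 against 11.5 to 16.6 TPM (mesonephric). They were 251 to 267 against 84.3 to 88.3 TPM (endothelial) and 3911 to 4290 against 2179 to 2457 TPM (germ cells). The part of these sums in the members' values was not tested. The male *Sall4* difference was -0.04 (SE 0.07, limma adjusted p = 0.612). The median over all genes was 0.62 in the male interval and 0.31 in the female interval, which sets the zero line of these differences. Median-of-ratios scaling, tried in place of the authors' TPM scaling, moved the median of the female interval to 0.13 and the share of its calls that were higher from 65.2% to 55.0%. It moved that share from 72.9% to 61.2% for E13.5F against E12.5 (median from 0.27 to 0.11) and from 55.2% to 66.1% for E13.5M against E12.5. Under that scaling *Sox2* was also called lower in E13.5F than at E12.5 (-1.08), and the call of *Sall4* in E13.5M against E12.5 was lost.

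Control E13.5F PGCs were lower than control E13.5M PGCs for 4 members (*Nanog* by -1.30, *Pou5f1* by -1.23, *Sox2* by -1.16 and *Esrrb* by -1.08, limma adjusted p from 1.09e-05 to 0.00148), against 9.35% of genes. *Esrrb* lost that call without E13.5F control library 2 (-0.94, limma adjusted p = 0.0032). At E16.5, 5 members were lower in females (*Pou5f1* by -4.40, *Sall4* by -3.81, *Nanog* by -1.42, *Klf4* by -1.20 and *Esrrb* by -1.09, limma adjusted p from 1.13e-06 to 0.00288), against 28% of genes. The call of *Klf4* was lost without E16.5F control library 1 (-0.92) or without any 1 of the 3 E16.5M control libraries (limma adjusted p from 0.016 to 0.0201). With median-of-ratios scaling the share of higher calls among all calls moved from 68.6% to 52.7% between the sexes at E13.5 (median of all genes from 0.28 to 0.02) and from 44.9% to 32.8% at E16.5 (median from -0.10 to -0.51), and *Zfp42* was also called lower in E13.5F than in E13.5M (-1.03).

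**Figure D2:**
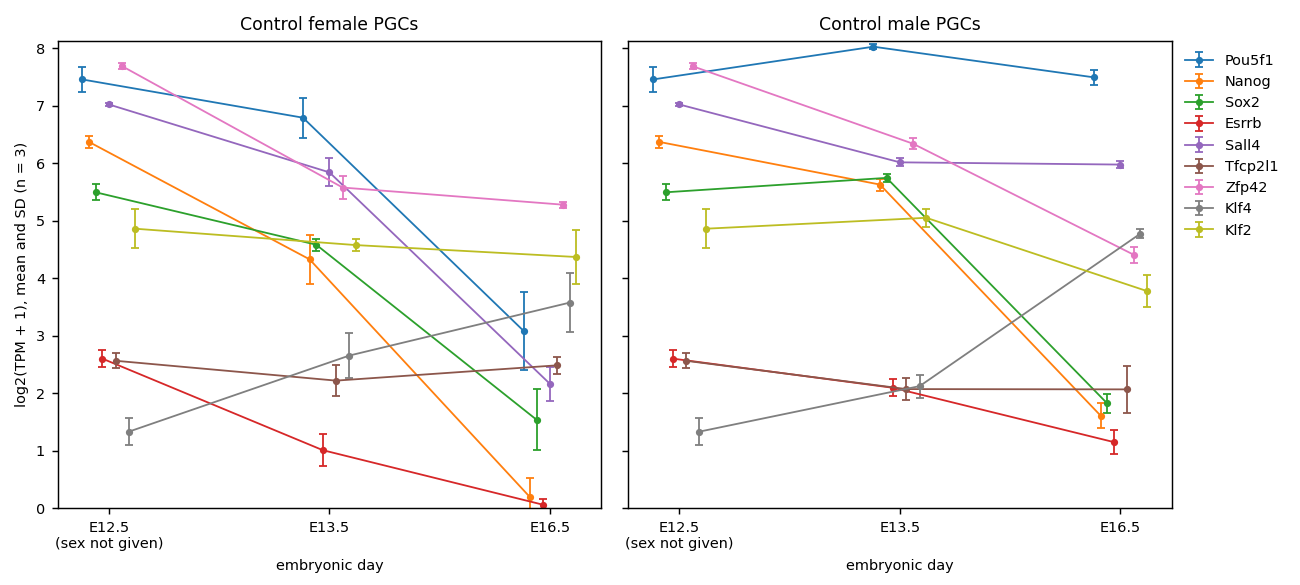
Mean log2(TPM + 1) of each factor with SD over 3 control libraries (vertical axis) against embryonic day (horizontal axis), females left and males right, with the E12.5 libraries shown in both panels. *Pou5f1* and *Sall4* differ by -3.70 and -3.68 between E13.5 and E16.5 in females and by -0.53 and -0.04 in males, where *Klf4* climbs by 2.65.

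The question of the IUHG comparison was whether exposed germ cells differ in their pluripotency factors. The members' median difference was highest in E13.5F PGCs, where all 9 fitted differences were positive, with a median of 0.97 against 0.14 over all genes tested. *Nanog*, *Sox2* and *Esrrb* stood highest relative to their spread.

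In E13.5F PGCs *Pou5f1* measured 288, 243 and 143 TPM in IUHG against 88.5, 104 and 142 TPM in control. The lowest IUHG library, library 3, was level with the highest control library, and the log2 difference was 0.97 (SE 0.28, limma adjusted p = 0.0941). *Sox2* measured 71.8, 52.2 and 67.5 TPM in IUHG against 21.4 to 24.7 TPM in control. *Nanog* measured 54.4, 65.0 and 59.5 TPM against 15.1 to 26.9 TPM. Neither overlapped between groups, and the IUHG level of both was within or above the range of control E13.5M PGCs. The differences were 1.42 for *Sox2* (SE 0.21, limma adjusted p = 0.0106) and 1.59 for *Nanog* (SE 0.25, limma adjusted p = 0.0141).

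*Esrrb* measured 8.87, 4.65 and 8.53 TPM in IUHG E13.5F PGCs against 0.644 to 1.39 TPM in control, without overlap, a difference of 2.01 (SE 0.35, limma adjusted p = 0.0204). *Sall4* measured 104, 132 and 379 TPM against 46.1 to 62.3 TPM, with library 3 far above the others, a difference of 1.61 (SE 0.41, limma adjusted p = 0.0706). *Zfp42* measured 69.1, 68.6 and 98.6 TPM against 41.5 to 54.2 TPM, a difference of 0.72 (SE 0.22, limma adjusted p = 0.103). The Krüppel-like factors differed less. *Klf2* measured 30.7, 27.8 and 46.5 TPM in IUHG against 21.0 to 24.0 TPM (0.56, SE 0.25, limma adjusted p = 0.21), and *Klf4* overlapped fully (0.08, SE 0.33, limma adjusted p = 0.89). *Tfcp2l1* measured 2.79, 5.16 and 10.7 TPM against 2.83 to 4.48 TPM (0.48, SE 0.42, limma adjusted p = 0.5).

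By limma 0 of 9 members were called in E13.5F PGCs, where 0.515% of 16519 tested genes were, and 7 members had an unadjusted p under 0.05, against 23.4% of genes. With an adjusted p under 0.05 and a log2 difference of at least 1, 3 members were higher (*Sox2*, *Nanog* and *Esrrb*), against 0.854% of genes. IUHG libraries lay wholly above control libraries for 7 of 9 members, against 19.8% of genes. The calls changed with IUHG library 3 and with the fit. That library was highest of its group for *Sall4*, *Tfcp2l1*, *Zfp42* and *Klf2* and lowest for *Pou5f1*, and its germ cell marker sum was 5063 TPM against 2954 and 3279 TPM in libraries 1 and 2 and 3500 to 3895 TPM in controls. Without it 5 members were called (*Sox2* 1.38, *Nanog* 1.59, *Pou5f1* 1.26, *Sall4* 1.04 and *Esrrb* 1.89, limma adjusted p from 0.00173 to 0.00817), all higher, while calls over all genes went from 85 to 430, of which 96 were higher (0.606% of 15834 tested). With library 3 kept, one fit of all PGC groups called 4 members, *Nanog*, *Sox2*, *Esrrb* and *Sall4*, and 1358 genes in all.

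Other measures moved with these differences in the same libraries, and their part in the result was not tested. *Stra8*, the retinoic acid-induced gene of meiotic entry, measured 466, 491 and 326 TPM in IUHG E13.5F PGCs, below a control mean of 1832 TPM (log2 difference -2.12, SE 0.19, limma adjusted p = 0.00109). *Sycp3*, a synaptonemal complex gene, had means of 336 and 1445 TPM (-2.10, SE 0.15, limma adjusted p = 0.000452). In whole E13.5F gonads the *Stra8* means were 122 TPM in IUHG and 125 TPM in control, and the *Sycp3* means 46.4 and 78.6 TPM. Both genes had overlapping ranges there. For *Sycp3* the overlap rested on control library 1 (59.8 TPM), the gonad library with Y-linked transcripts. Control libraries 2 and 3 measured 98.2 and 77.9 TPM, above the IUHG libraries at 62.9, 44.2 and 32.0 TPM. The summed level of 9 immediate-early genes, which respond to dissociation, was 435 to 509 TPM in IUHG and 792 to 913 TPM in control. The interstitial marker sum was 6.99 to 10.4 TPM in IUHG and 11.0 to 16.9 TPM in control, and of its 6 genes *Pdgfra* alone was under 1 TPM in all 6 libraries. The Sertoli sum (0.972 to 2.33 against 2.55 to 2.91 TPM) and the pregranulosa sum (9.80 to 16.4 against 16.9 to 17.3 TPM) were lower in IUHG as well. The endothelial sum was higher, 110 to 225 TPM in IUHG against 69.6 to 92.4 TPM in control, with *Cdh5*, *Kdr* and *Tek* under 1 TPM in all 6 libraries. The mesonephric sum was also higher, 47.5 to 51.7 against 41.5 to 43.6 TPM, with *Pax2* and *Cdh16* under 1 TPM in all 6 libraries. The 6 germ cell markers had a median log2 difference of -0.50.

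**Figure D3:**
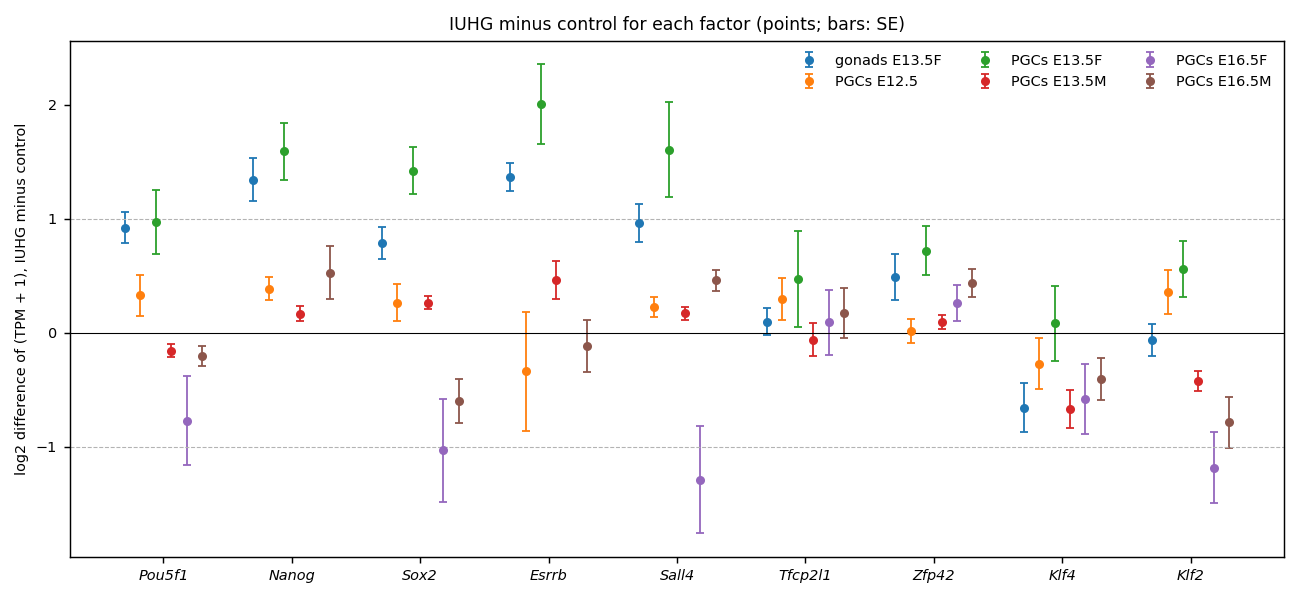
Log2 difference of (TPM + 1), IUHG minus control, of each factor (vertical axis) with its SE as bars, for gonads and 5 PGC groups in colours, with dashed lines at 1 and -1. E13.5F PGCs and gonads lie highest for *Nanog* (1.59 and 1.34) and *Esrrb* (2.01 and 1.36), and E16.5F PGCs lie lowest for *Sall4* (-1.29) and *Klf2* (-1.18).

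Whole E13.5F gonads, in which germ cells are a minority, gave a separate set of pools. *Nanog* measured 13.2, 14.1 and 13.2 TPM in IUHG gonads against 5.66, 3.12 and 5.76 TPM in control, without overlap, and it rose by 1.34 (SE 0.19, limma adjusted p = 0.0157). *Esrrb* measured 16.7, 14.4 and 12.6 TPM against 5.03, 4.76 and 5.25 TPM, also without overlap, and it rose by 1.36 (SE 0.12, limma adjusted p = 0.00275). These 2 of 9 members were called higher, against 0.389% of genes. Without any 1 of the 3 IUHG gonad libraries *Nanog* kept its size (1.32 to 1.36) and lost its call (limma adjusted p from 0.0514 to 0.0763). *Esrrb* means were higher in gonads (5.01 TPM in control, 14.6 TPM in IUHG) than in sorted E13.5F PGCs (1.04 and 7.35 TPM). Control means of *Klf4*, *Klf2* and *Tfcp2l1* were also higher in gonads, and those of *Pou5f1*, *Nanog*, *Sox2*, *Sall4* and *Zfp42* lower. Tissue and pipeline differed, and the part of somatic cells in the gonad values was not tested.

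*Pou5f1* in gonads measured 152, 135 and 137 TPM in IUHG against 91.4, 59.2 and 74.8 TPM in control (0.92, SE 0.14, limma adjusted p = 0.0179). *Sall4* measured 33.3, 27.0 and 25.9 TPM against 11.8, 12.8 and 18.8 TPM (0.96, SE 0.17, limma adjusted p = 0.0309), and *Sox2* measured 41.7, 33.0 and 33.0 TPM against 16.2, 22.2 and 22.8 TPM (0.79, SE 0.14, limma adjusted p = 0.0332). None of the 3 overlapped between groups, and all 3 stayed below the fold threshold. Together with *Nanog* and *Esrrb* that made 5 of 9 members wholly above control, against 14.5% of genes. *Klf4* measured 7.09, 7.94 and 8.72 TPM in IUHG gonads against 8.77, 14.2 and 17.6 TPM (-0.66, SE 0.22, limma adjusted p = 0.144), the 1 member wholly below control. *Fos*, an immediate-early gene, fell in the same gonads (-2.19, SE 0.38, limma adjusted p = 0.0297), the sum of the 9 immediate-early genes was 275 to 406 TPM in IUHG and 467 to 1062 TPM in control, and their part in the *Klf4* value was not tested.

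The 6 germ cell markers summed to 337 to 417 TPM in control gonads and 412 to 555 TPM in IUHG gonads, with a mean log2 difference of 0.23, while the interstitial sum was 2433 to 2673 TPM in control and 1819 to 1954 TPM in IUHG. The part of the germ cell share in the members' values was not tested. Without control library 1, which carried Y-linked transcripts, 3 members were called, *Pou5f1* in addition to *Nanog* and *Esrrb*. Without control library 3 *Sall4* was the additional call.

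At E12.5 the members differed little. *Nanog* measured 115, 101 and 105 TPM in IUHG PGCs against 85.0, 75.3 and 85.0 TPM in control, without overlap (0.39, SE 0.10, limma adjusted p = 0.103). *Sall4* measured 154, 150 and 148 TPM against 127, 132 and 128 TPM (0.23, SE 0.08, limma adjusted p = 0.243). By limma 0 of 9 members were called, against 0.247% of genes, and these 2 had an unadjusted p under 0.05, against 15.7% of genes. *Tfcp2l1* was also wholly above control, with 7.69, 5.77 and 5.54 TPM in IUHG against 4.35, 5.28 and 5.19 TPM (0.30, SE 0.18, limma adjusted p = 0.469). *Pou5f1* measured 190, 188 and 295 TPM in IUHG against 193, 148 and 186 TPM in control (0.33, SE 0.18, limma adjusted p = 0.402). IUHG library 3 stood apart in *Esrrb*, with 0.675 TPM against 7.23 and 7.07 TPM in the other 2. The *Esrrb* difference was -0.34 (SE 0.52, limma adjusted p = 0.783) and became 0.42 without that library. These pools, whose sex the labels do not give, also differed without overlap in their Y-linked sum (130 to 154 TPM in IUHG against 194 to 212 TPM in control), interstitial sum (0.660 to 1.37 against 5.55 to 7.28 TPM), Sertoli sum (2.08 to 3.62 against 5.35 to 8.03 TPM), endothelial sum (192 to 202 against 160 to 171 TPM) and germ cell sum (2142 to 2412 against 2481 to 2601 TPM), and the part of these in the members' values was not tested. Of the endothelial genes, *Cdh5*, *Kdr* and *Emcn* were under 1 TPM in every E12.5 library.

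In E13.5M PGCs the libraries of a group lay close together and small differences passed the adjusted p. *Sox2* measured 62.3, 63.3 and 64.6 TPM in IUHG against 50.01, 54.7 and 53.2 TPM in control, without overlap (0.26, SE 0.06, limma adjusted p = 0.00698). *Klf2* measured 22.2, 24.4 and 24.7 TPM against 28.8, 35.9 and 32.1 TPM (-0.42, SE 0.09, limma adjusted p = 0.00606), and *Klf4* measured 2.16, 1.35 and 1.78 TPM against 3.21, 2.88 and 4.09 TPM (-0.67, SE 0.17, limma adjusted p = 0.0138). Both Krüppel-like factors were below control in every IUHG library. These 3 of 9 members had an adjusted p under 0.05, as did 33.3% of all genes, and by limma 0 members reached the call, against 3.93% of genes, with 7 at an unadjusted p under 0.05, against 43.9% of genes. *Egr1* and *Fos* fell in the same libraries (-2.52 and -1.02, limma adjusted p = 1.75e-07 and 4.08e-06), while *Stra8* rose (134 to 175 TPM in IUHG against 8.73 to 13.0 TPM in control). The germ cell sum was lower in IUHG (1724 to 1909 against 2179 to 2457 TPM), as was the interstitial sum (2.67 to 4.22 against 7.61 to 8.61 TPM). The mesonephric sum (28.3 to 32.6 against 11.5 to 16.6 TPM) and the endothelial sum (119 to 126 against 84.3 to 88.3 TPM) were higher, and the part of these in the members' values was not tested. The mesonephric genes *Pax8*, *Pax2* and *Cdh16* were under 1 TPM in every E13.5M library. So were the endothelial genes *Cdh5*, *Kdr*, *Tek*, *Emcn* and *Esam*, so these sums rest on the remaining genes of each list. *Pou5f1* measured 216, 235 and 246 TPM in IUHG against 253 to 269 TPM in control (-0.16, SE 0.06, limma adjusted p = 0.0539).

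In E16.5F PGCs *Sox2* and *Sall4* were at most 4.51 TPM in both groups, whereas *Klf4* had means of 11.4 TPM in control and 7.06 TPM in IUHG and *Tfcp2l1* of 4.62 and 5.00 TPM. *Nanog* and *Esrrb* were listed at 0 in all 3 IUHG libraries and in 2 of 3 control libraries, so 7 of 9 members were tested. *Sall4* measured 2.03 and 1.04 TPM in IUHG libraries 2 and 3 and was listed at 0 in library 1, against 2.67 to 4.51 TPM in control (-1.29, SE 0.47, limma adjusted p = 0.144). *Klf2* measured 5.72, 11.0 and 8.39 TPM in IUHG against 13.2, 23.7 and 24.1 TPM in control (-1.18, SE 0.31, limma adjusted p = 0.0563), again without overlap. *Sox2* measured 0.738 and 0.653 TPM in libraries 2 and 3 and was listed at 0 in library 1, against 1.04 to 3.24 TPM (-1.03, SE 0.45, limma adjusted p = 0.213). By limma 0 members were called, against 0.742% of genes, and these 3 of 7 had an unadjusted p under 0.05, against 22.8% of genes. *Zfp42* measured 51.7, 38.6 and 47.3 TPM in IUHG and 36.2 to 38.8 TPM in control (0.26, SE 0.16, limma adjusted p = 0.337). *Pou5f1* measured 3.05, 5.64 and 3.58 TPM in IUHG against 13.6, 5.64 and 5.34 TPM in control, with overlap (-0.77, SE 0.39, limma adjusted p = 0.271). The interstitial marker sum was 87.2 to 122 TPM in IUHG and 22.8 to 66.9 TPM in control libraries, and its part in these values was not tested.

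In E16.5M PGCs *Sall4* measured 75.3, 92.3 and 90.2 TPM in IUHG against 59.6, 61.1 and 65.2 TPM in control, without overlap (0.46, SE 0.09, limma adjusted p = 0.0257). *Zfp42* measured 23.8, 30.0 and 29.8 TPM against 18.4, 20.0 and 22.5 TPM (0.44, SE 0.12, limma adjusted p = 0.069). *Klf2* measured 4.79, 7.58 and 9.16 TPM against 11.5, 11.0 and 16.2 TPM (-0.78, SE 0.22, limma adjusted p = 0.0721). *Sall4* and *Zfp42* were wholly above control, *Klf2* and *Sox2* wholly below it, and the share of all genes without overlap is not given here. *Sox2* measured 1.48, 1.25 and 1.29 TPM against 2.19, 2.99 and 2.50 TPM (-0.60, SE 0.19, limma adjusted p = 0.102). By limma 0 of 9 members were called, against 0.201% of genes, and 6 had an unadjusted p under 0.05, against 23.9% of genes. The immediate-early sum was 200 to 212 TPM in IUHG and 306 to 330 TPM in control. The interstitial sum was higher in IUHG (42.2 to 45.1 against 22.2 to 40.7 TPM) and the Sertoli sum lower (72.8 to 76.2 against 97.4 to 103 TPM), as were the endothelial (219 to 242 against 251 to 267 TPM) and mesonephric sums (180 to 191 against 221 to 224 TPM). Their part in these values was not tested.

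The difference between the IUHG effects of 2 groups was tested as an interaction, called at an adjusted p under 0.01. At E13.5 the IUHG effect was larger in females than in males for 2 of 9 members, *Nanog* (difference of effects 1.42, SE 0.25, limma adjusted p = 0.00445) and *Sox2* (1.16, SE 0.19, limma adjusted p = 0.00255), against 1.22% of genes. *Nanog* had effects of 1.59 in females and 0.17 in males, and *Sox2* of 1.42 and 0.26. *Pou5f1* had effects of 0.97 and -0.16, and its difference of effects was 1.13 (SE 0.31, limma adjusted p = 0.0406). Both calls were lost without E13.5M control library 2 or 3 or any 1 of the 3 E13.5M IUHG libraries (limma adjusted p from 0.0104 to 0.0174), and *Nanog* alone lost its call without E13.5F control library 1 or 2 or E13.5M control library 1. Without E13.5F IUHG library 3, 5 members were called, *Pou5f1*, *Sall4* and *Klf2* in addition.

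Between the sexes at E16.5, by limma 0 members were called, against 1.18% of genes, with 1 at an unadjusted p under 0.05, against 19.5% of genes. That member was *Sall4* (-1.29 in females against 0.46 in males, difference of effects -1.75, SE 0.44, limma adjusted p = 0.0458), and it was called without E16.5F IUHG library 2. Between stages, *Sox2* was the 1 member called in each sex. In females its IUHG effect was 2.45 higher at E13.5 than at E16.5 (SE 0.44, limma adjusted p = 0.00501), against 0.579% of genes. In males it was 0.86 higher (SE 0.14, limma adjusted p = 0.000987), against 3.36% of genes, and over all calls in males the share with the higher effect at E13.5 moved from 40.3% to 59.1% with median-of-ratios scaling. The male call held when any 1 of the 12 libraries was left out, whereas the female call was lost without any 1 of the 3 E13.5F control libraries, E13.5F IUHG library 1, E16.5F control library 2 or 3, or E16.5F IUHG library 1 or 3 (limma adjusted p from 0.0108 to 0.0205).

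The wider network was described with 4 further lists, namely 13 partner regulators of the members, 18 target and marker genes, 10 factors of the exit from pluripotency and 20 paralogs of the members. In E13.5F PGCs, where the median of all genes was 0.14, the IUHG median was 1.02 for the 12 tested partners and 1.02 for the 16 tested targets. It was 0.73 for 8 exit factors and 0.68 for 14 paralogs, so the paralogs, too, lay above the median of all genes. By limma 0 genes of the 4 lists were called there. At an adjusted p under 0.05, 4 partners and 6 targets were higher and 0 lower, against 3.07% of genes in either direction. At an unadjusted p under 0.05 there were 7 of 12 partners and 13 of 16 targets, beside the 23.4% of genes given above. The 4 partners, named after their values were seen, were *Klf5*, *L1td1*, *Tcl1* and *Tet1*. *Tet1*, a 5-methylcytosine dioxygenase, had means of 28.6 TPM in IUHG and 8.14 TPM in control.

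In E13.5M PGCs 2 partners rose, *Gbx2* (10.0, 9.96 and 13.0 TPM against 2.17, 4.16 and 3.33 TPM, log2 difference 1.53, SE 0.18, limma adjusted p = 0.000255) and *Nr0b1* (1.13, SE 0.15, limma adjusted p = 0.000448). *Spp1*, a secreted target of OCT4, fell, with 18.9, 22.6 and 19.9 TPM in IUHG against 69.2, 86.8 and 83.0 TPM in control (-1.91, SE 0.10, limma adjusted p = 1.42e-06). It ran against most of its list. At an adjusted p under 0.05, 8 of 17 tested targets were higher and 3 lower there, against 33.3% of genes in either direction. The median of the targets was 0.23 against -0.02 over all genes. Among the targets in gonads *Dppa2* rose (1.22, SE 0.13, limma adjusted p = 0.0064). In E16.5F PGCs *Dppa3* (Stella), a maternal factor that protects DNA from demethylation, measured 14.5, 2.53 and 9.81 TPM in IUHG against 253, 227 and 184 TPM in control, without overlap, and fell by 4.72 (SE 0.45, limma adjusted p = 0.00108). It was also lower without overlap at E12.5 (4616 to 5046 against 5174 to 5922 TPM) and in E13.5M PGCs (5983 to 6087 against 6661 to 7130 TPM), whereas in E13.5F and E16.5M PGCs its ranges overlapped between IUHG and control.

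**Figure D4:**
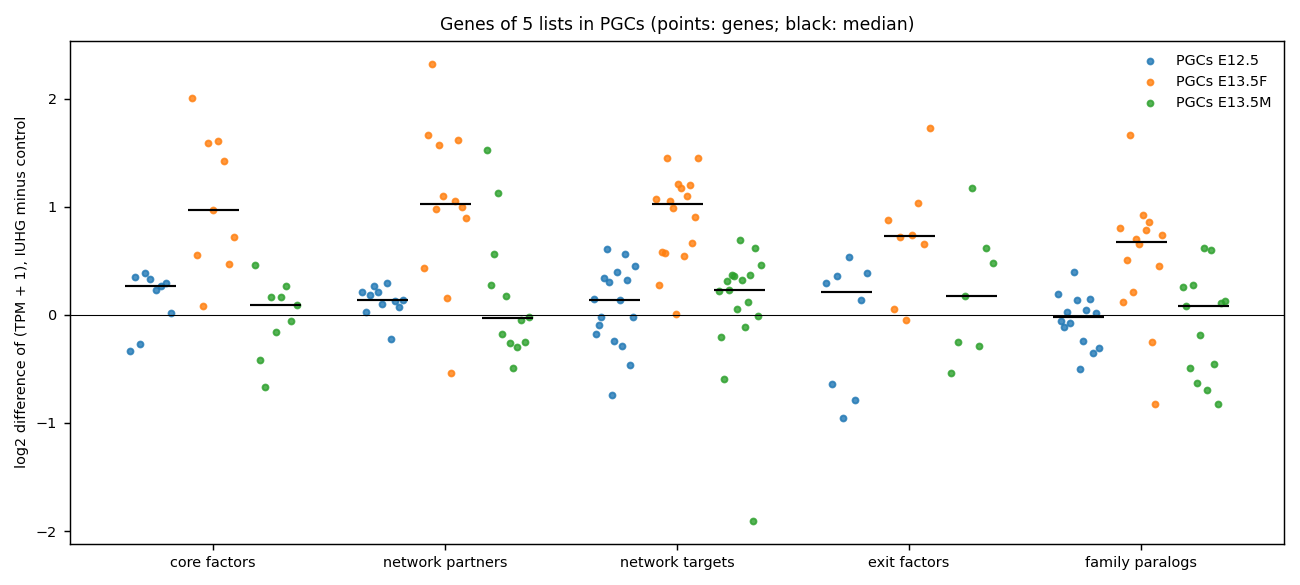
Log2 difference of (TPM + 1), IUHG minus control (vertical axis), of each tested gene (points) of the core factors and 4 wider lists (horizontal axis) in E12.5, E13.5F and E13.5M PGCs, with the list median as a black bar. The E13.5F medians lie at 0.97 for core factors and 1.02 for partners and targets, against 0.14 for all genes, and the E13.5M medians lie between -0.03 and 0.23.

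In the control course the targets fell with the members. Of 17 tested targets, 11 fell and 0 rose from E12.5 to E13.5F, against 6.9% and 18.6% of all genes. Their median was -1.51 against 0.27 over all genes. *Lefty2* and *Lefty1*, inhibitors of NODAL signalling, fell by 7.96 and fell by 5.87 (limma adjusted p = 6.14e-10 and 1.92e-08), and *Utf1*, a chromatin-bound target of OCT4 and SOX2, fell by 2.03. Means of *Lefty2*, *Lefty1* and *Utf1* were 346, 158 and 1170 TPM in E12.5 controls and 174, 303 and 1764 TPM in E13.5M controls. As for the members, stage and sex cannot be told apart between E12.5 and E13.5F. From E12.5 to E13.5M 3 of 17 targets fell, against 7.27% of genes, with a median of -0.39 against -0.03. From E13.5M to E16.5M 10 of 17 fell and 1 rose, against 12.7% and 38.3% of genes. From E13.5F to E16.5F 10 of 15 fell, against 9.79% of genes, and 1 rose. Of 8 tested exit factors, 3 rose and 1 fell from E13.5M to E16.5M, against 38.3% and 12.7% of genes. *Dnmt3a*, the de novo methyltransferase listed with the exit factors, rose with means of 38.6 and 299 TPM (2.94, SE 0.21, limma adjusted p = 3.09e-06). The 1 that fell was *Otx2*, with means of 20.6 TPM in E13.5M and 0.906 TPM in E16.5M (-3.55, SE 0.21, limma adjusted p = 9.54e-07).

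Across the 10 PGC group means the likeness of the members was described with Pearson's r of log2(TPM + 1), where the groups share stages, sexes and library preparation. *Pou5f1* was nearest to *Sall4* (r = 0.97), *Nanog* to *Sox2* (r = 0.97) and *Esrrb* (r = 0.93), *Klf2* was nearest to *Sox2* (r = 0.90), and *Zfp42* ran opposite to *Klf4* (r = -0.94). *Pou5f1* and *Nanog* were also positively related (r = 0.79), and *Tfcp2l1* had r between -0.33 and 0.52 with every other member. *Klf4* was negatively related to each of the other members, from -0.94 to -0.29. Among 15106 other genes, the 3 nearest in pattern were *Rcc2*, *Foxr1* and *Ptov1* for *Pou5f1*, *Slc25a39*, *Ube2c* and *Etv5* for *Sox2*, and *Gm8666*, *Slc25a5* and *Wdr89* for *Nanog*. They were *Fbxw11*, *E2f7* and *Tcf7l1* for *Esrrb*, *Elovl5*, *Cyp20a1* and *Dctd* for *Sall4*, and *Nup35*, *Eif3e* and *Ndc80* for *Tfcp2l1*. For *Zfp42* they were *Fntb*, *Zfp42-ps1* and *Zw10*, for *Klf4* *Rnf227*, *Peli2* and *Gaa*, and for *Klf2* they included *Khnyn* and *Ass1*, with r from 0.927 to 0.996 over all of these pairs.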

How the data were processed

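RNA-seq of 36 mouse libraries was used, 3 in each of 12 groups set by the labels. The authors aligned reads with HISAT2 (gonads) or STAR (PGCs). The deposited tables hold StringTie values per gene, where TPM and FPKM were scaled by the authors for transcript length and library size, and coverage, the mean read depth, was left unscaled in the deposited tables. Read counts were not used here, so the authors' count test (DESeq2) was not run. Positions of gonad genes shared a start or end with GRCm38 in 47.9% of genes and with mm9 in 1.59%, and PGC positions with GRCm38 in 1.14%, for which the methods name mm39. Promoters came from RefSeq GRCm38.p6 and no position of PGC genes was used.

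Values of 1 gene ID were added up, and differences were taken on log2(TPM + 1). A gene entered a comparison when its mean reached 1 TPM in either group. The test was limma 3.58.1 (R 4.3.3, two-sided, variance trend, Benjamini-Hochberg adjustment over all genes tested), each comparison on its own groups. The PGC methods do not say whether their p was adjusted, and an adjusted p under 0.01 was used. The members and the lists were chosen with earlier results of these data known. Named were all 9 members and the 3 genes most alike each member in PGC group means. Some, not all, of the 4 list genes with the lowest p among those called in a comparison were also named. Others are marked. A target called in gonads and a gene alike *Klf2* are not reported here. Tried in turn were FPKM values, 0.1 as the pseudocount, testing without the filter, median-of-ratios scaling, a block for the replicate number, all PGC groups in one fit, an adjusted p under 0.05 and leaving out each library. The fit was tested on simulated data. Tables were made with Python 3.11.15, pandas 2.3.3, numpy 2.4.6 and matplotlib 3.10.9.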

Additional observations from a re-analysis of the deposited data

Results flagged for a closer look

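The IUHG effect on *Nanog* at E13.5 was 1.42 higher on the log2 scale in female than in male PGCs, and that on *Sox2* was 1.16 higher, both by an interaction test in limma (adjusted p = 0.00445 and 0.00255). All 3 IUHG libraries lay above all 3 control libraries for both genes in each sex, as they did for 19.8% of all genes in females. In males the differences were small, 0.17 for *Nanog* and 0.26 for *Sox2* (limma adjusted p = 0.0819 and 0.00698). There 33.3% of all genes had an adjusted p under 0.05.

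The IUHG effect on *Sox2* was 2.45 higher at E13.5 than at E16.5 in female PGCs and 0.86 higher in male PGCs, by the same test (limma adjusted p = 0.00501 and 0.000987). At E16.5 all *Sox2* values were at most 3.24 TPM, where the result depends on the pseudocount, and with a pseudocount of 0.1 the female difference of 3.75 had a limma adjusted p of 0.0337.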

How the results depend on the processing

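Counts of called members changed by over 1.5 times as follows, and the cause was not tested. In gonads 2 members became 0 with no filter on low values. In E13.5F PGCs 0 members became 1 with median-of-ratios scaling, 4 in one fit of all PGC groups and 3 at an adjusted p under 0.05, while calls over all genes went from 85 to 1358 in the one fit. In E16.5F PGCs 0 became 3 in the one fit. In controls, E13.5M against E12.5 went from 2 to 1 with FPKM, median-of-ratios scaling or the one fit, and E16.5F against E16.5M from 5 to 3 with FPKM, where *Nanog* and *Esrrb* were not tested. For the sex interaction at E13.5, 2 became 1 with FPKM, no filter or the one fit, and 5 at an adjusted p under 0.05, and at E16.5 0 became 1 at that threshold. For the stage interaction in females, 1 became 3 with FPKM, 0 with a pseudocount of 0.1 or no filter, 2 with median-of-ratios scaling, and 6 in the one fit or at an adjusted p under 0.05. In males it became 0 in the one fit. Smaller changes were 2 to 3 in gonads, 2 to 3 for E13.5M against E12.5 and 5 to 6 for E16.5M against E13.5M with a pseudocount of 0.1, 5 to 4 without the filter and 5 to 6 with median-of-ratios scaling for E13.5F against E12.5, 5 to 4 without the filter for the sexes at E16.5, and for the sexes at E13.5 4 to 3 with FPKM, no filter or the one fit and 4 to 5 with median-of-ratios scaling.

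With the replicate number as a block, 0 members became 4 in E13.5F PGCs (*Nanog*, *Sox2*, *Esrrb* and *Sall4*, with 217 genes called in all) and 1 became 2 in the stage interaction in females. Same-numbered libraries correlated from -0.08 to 0.12 in their deviations, so the numbers were not taken to pair the libraries.

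Leaving out 1 library gave 1 to 3 called members in gonads, 0 to 5 in E13.5F PGCs, 1 to 2 for E13.5M against E12.5, 5 to 6 for E16.5M against E13.5M, 3 to 4 for E13.5F against E13.5M, 4 to 5 for E16.5F against E16.5M, 0 to 5 and 0 to 1 for the sex interactions at E13.5 and E16.5 and 0 to 2 for the stage interaction in females. Scaling moved the median of all genes by over 0.1 between E13.5F IUHG and control (0.14 in TPM, 0.0060 with median-of-ratios) and in the sex interaction at E13.5 (0.16 and -0.0261). Apart from leaving out libraries, calls over all genes ranged from 5 to 116 in gonads (112 as reported), 2 to 88 at E12.5 (34), 1 to 1358 in E13.5F (85), 321 to 762 in E13.5M (568), 10 to 1659 in E16.5F (139) and 9 to 164 in E16.5M PGCs (42), with the lowest count in all but E13.5M without the filter. They ranged from 344 to 1716 and 161 to 1071 in the sex interactions at E13.5 (559) and E16.5 (284), and from 258 to 2608 and 416 to 3743 in the stage interactions of females (397) and males (1807).

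Apart from leaving out libraries, 4 small differences turned direction. *Zfp42* at E12.5 became -0.0307 with FPKM and -0.0188 with median-of-ratios scaling, *Klf4* in E13.5F PGCs -0.0491 and -0.0438, *Tfcp2l1* between the control sexes at E13.5 -0.0691 with median-of-ratios scaling, and *Esrrb* in the sex interaction at E16.5 -0.23 with a pseudocount of 0.1. Without 1 library the IUHG difference ranged from -0.24 to 0.0509 for *Klf2* in gonads, -0.73 to 0.42 for *Esrrb* and -0.0686 to 0.10 for *Zfp42* at E12.5, -0.13 to 0.29 for *Klf4* in E13.5F and -0.16 to 0.0293 for *Tfcp2l1* in E13.5M PGCs. The control difference ranged from -0.00542 to 0.31 for *Klf2* (E13.5M against E12.5), -0.35 to 0.062 for *Klf2* (E16.5F against E13.5F) and -0.24 to 0.13 for *Tfcp2l1* (E16.5M against E13.5M). Interactions ranged from -0.0348 to 0.16 for *Esrrb*, -0.31 to 0.0561 for *Tfcp2l1* and -0.45 to 0.0499 for *Klf4* (sex at E16.5), -0.043 to 0.77 for *Tfcp2l1* (stage in females) and -0.0115 to 0.12 for *Pou5f1* (stage in males).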
